A study of Sus scrofa with 6 samples.

Results

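The YIPF and YIF1 genes encode the Yip1-domain proteins, small membrane proteins of the Golgi and the vesicles that feed it. The 8 genes described here, YIPF1 to YIPF6 with YIF1A and YIF1B, were found by name in the deposited abundance table, each in 1 row, out of 17678 genes listed. YIPF5 was chosen by its values in these same libraries, which were higher in SIN3A knockdown embryos, so its difference between the groups is given as a description with no test. The other 7 were listed by family name. Pig oocytes matured in vitro, from ovaries of crossbred slaughterhouse animals, received either non-specific siRNA (NC) or siRNAs against SIN3A (KD) by microinjection. They were then activated without sperm, so all embryos in both groups are parthenogenetic and carry no paternal genome, and were harvested as 2-cell embryos 32 h later. Each group has 3 replicates, and each replicate is a pool of 20 embryos sequenced as messenger RNA in bulk.

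Yip1-domain proteins span the membrane several times and were first known in yeast as partners of the RAB GTPases that direct vesicle traffic. YIPF5 forms a complex with YIF1A and acts in transport between the endoplasmic reticulum (ER) and the Golgi, where proteins bound for the cell surface are sorted and modified. YIPF3 pairs with YIPF4 in the Golgi, and YIPF6 binds YIPF1 or YIPF2. In humans, inherited loss of YIPF5 function causes neonatal diabetes with microcephaly and ER stress.

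The knockdown was checked on its target. SIN3A values were 32404 to 37361 in the NC libraries and 1079 to 4173 in the KD libraries, and the groups did not overlap. Library sums of the normalized values ran from 11084900 to 11500700. All 10 oocyte and early embryo markers found were above the filter on low values, and their summed value was 91737 to 101197 in NC and 88602 to 109371 in KD. Of 11 cumulus and granulosa cell markers found, 7 were below the filter, and the sum of the 11, most of it VCAN, was 854 to 1028 in NC and 813 to 974 in KD. The values are relative within a library, so they do not show a change in the whole messenger RNA content of an embryo, and fewer cells with a transcript cannot be told apart from less of it per cell. GFP and RFP mRNA spiked in before extraction were not used here.

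YIPF5 (ENSSSCG00000039309) occupies positions 145655005 to 145668632 of chromosome 2 (build Sscrofa11.1, minus strand). RefSeq lists 3 YIPF5 mRNAs, and the longest has 6 exons and 2160 bases. An uncharacterized gene on the plus strand, LOC110259671, overlaps its start. The exon of that gene from 145668235 to 145668989 covers in full an annotated first exon of YIPF5, from 145668470 to 145668632. Of the 2160 exonic bases of YIPF5 over all its annotated transcripts, 168 (7.78%) are also exonic in LOC110259671, including some outside that first exon. The library kit is not stated to keep strand, so reads from these bases cannot be assigned to either gene. LOC110259671 was not found by name in the abundance table.

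The 300 bases around the start of YIPF5, 250 before it and 50 after it, are shown because they hold part of this overlap. They also mark the start of the member chosen for its rise in KD. They lie at chr2:145668583-145668882 and are written on the minus strand, from the RefSeq genome of Sscrofa11.1. Capitals mark the only match to the 4 motifs searched on both strands, a CCAAT box read on the opposite strand.
YIPF5 start: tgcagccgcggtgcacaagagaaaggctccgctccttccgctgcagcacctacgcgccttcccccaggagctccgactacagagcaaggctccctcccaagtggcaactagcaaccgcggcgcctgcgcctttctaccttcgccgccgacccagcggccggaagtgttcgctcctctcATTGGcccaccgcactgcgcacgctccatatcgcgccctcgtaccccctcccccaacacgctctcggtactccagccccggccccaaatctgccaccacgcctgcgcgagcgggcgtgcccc
The other motifs searched were CACGTG (E-box), TGACGT (core of the cyclic AMP response element) and GGGCGG (GC box). No window of the 8 genes held CACGTG or TGACGT, which 7.93% and 8.61% of 19532 promoters of the same length hold. CCAAT was found at YIPF5, YIPF4, YIF1A and YIF1B, against 35.4% of all promoters, and GGGCGG at YIPF2, YIPF6, YIF1A and YIF1B, against 50.6%. These matches are letters in a window and were not tested for binding.

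The normalized values of YIPF5 were 176, 173 and 215 in the NC libraries. In the KD libraries they were 307, 332 and 355. Every KD library was above every NC library, which is part of the rise that YIPF5 was chosen for. The NC mean of 188 ± 23.3 compared with a KD mean of 331 ± 24.4 (SD, n = 3 each), a ratio of 1.76, and the 3 KD libraries were 1.63, 1.77 and 1.89 times the NC mean. On the log2(value + 1) scale the fold change was 0.82. This is the contrast by which YIPF5 was picked, so no interval is given. It was just above 0.80, the fold change set as a threshold in the methods of the study, and was below it without NC replicate 1 (0.78), NC replicate 2 (0.76) or KD replicate 3 (0.77). The SD of YIPF5 was 12.4% of its mean in NC and 7.38% in KD.

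**Figure D1:**
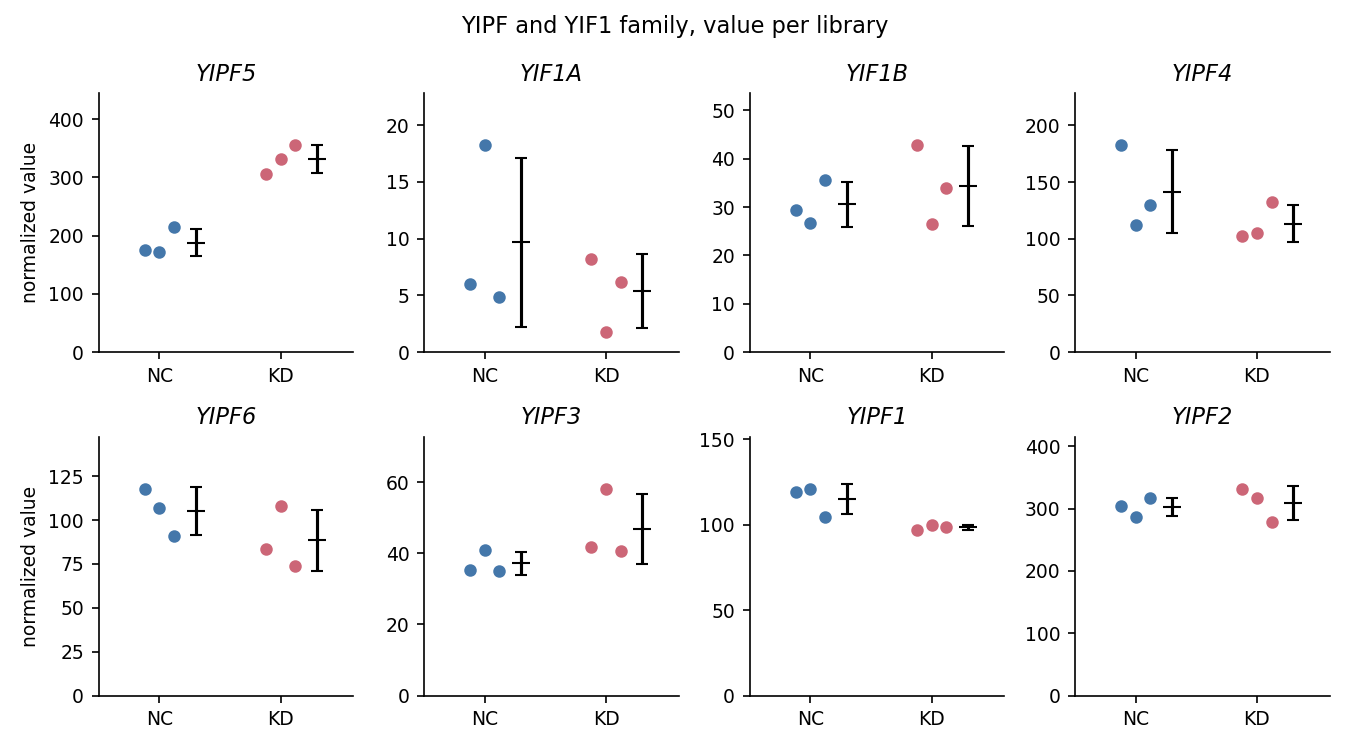
Normalized value (y axis, from 0, own scale per gene) of the 8 family genes in NC (blue) and KD (red) embryos. Points are the 3 libraries of each group and bars are mean ± SD. YIPF5 sits at 173 to 215 in NC and 307 to 355 in KD. YIPF1 is the only other gene whose groups do not overlap, at 105 to 121 in NC and 96.8 to 99.9 in KD.

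The binding partner YIF1A (ENSSSCG00000012953) was below the filter on low values. It lies on chromosome 2 from 6097749 to 6101965. Its values were 5.97, 18.2 and 4.84 in NC and 8.20, 1.75 and 6.21 in KD. The groups overlapped, and NC replicate 2 stood above the other 5 libraries. Its mean over the 6 libraries, 7.53, was below the minimum of 10, so YIF1A was not among the genes tested. Its log2 fold change of -0.70 carries no interval, and without a filter limma gave it a standard error of 0.66 (adjusted p = 0.994).

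YIF1B (ENSSSCG00000002952), the paralog of YIF1A, which also serves in transport to the plasma membrane of nerve cells, was higher per kb of mRNA than YIF1A in every library. It lies on chromosome 6 from 47224345 to 47234342. Its values were 29.3, 26.7 and 35.7 in NC and 42.8, 26.5 and 33.9 in KD. The groups overlapped, with the lowest and the highest library both in KD. The log2 fold change was 0.15 (SE, the standard error, 0.32, 95% confidence interval -0.53 to 0.82, limma adjusted p = 0.997).

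YIPF3 and YIPF4, which form a Golgi complex with each other, differed in opposite directions, and neither passed the test. YIPF3 (ENSSSCG00000033627, chromosome 7 from 38506642 to 38511458) had values of 35.4, 40.9 and 35.2 in NC and of 41.8, 58.1 and 40.7 in KD. The groups touched, since KD replicate 3 lay just below NC replicate 2. Its log2 fold change was 0.31 (SE 0.28, 95% confidence interval -0.28 to 0.90, limma adjusted p = 0.997). YIPF4 (ENSSSCG00000035747, chromosome 3 from 107299597 to 107340029) had values of 182, 112 and 130 in NC and of 103, 105 and 132 in KD. NC replicate 1 alone lay well above the rest. Its log2 fold change was -0.30 (SE 0.21, 95% confidence interval -0.73 to 0.14, limma adjusted p = 0.997), and -0.10 without NC replicate 1.

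YIPF6 and its binding partners YIPF1 and YIPF2 act at the medial and trans Golgi. YIPF6 (ENSSSCG00000028336, chromosome X from 54661771 to 54687988) had values of 118, 107 and 90.8 in NC and of 83.3, 108 and 73.9 in KD. The groups overlapped because KD replicate 2 lay among the NC libraries. Its log2 fold change was -0.26 (SE 0.21, 95% confidence interval -0.70 to 0.19, limma adjusted p = 0.997).

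YIPF1 (ENSSSCG00000028506, chromosome 6 from 158400008 to 158445516) had values of 119, 121 and 105 in NC and of 96.8, 99.9 and 98.6 in KD. All KD libraries were below all NC libraries, by a small margin, and the exact two-sided permutation test gave p = 0.1, the smallest that 3 against 3 libraries allow. The log2 fold change of -0.22 (SE 0.18, 95% confidence interval -0.61 to 0.17) did not pass the test over all genes (limma adjusted p = 0.997). YIPF2 (ENSSSCG00000013634, chromosome 2 from 69644000 to 69649691) had values of 304, 287 and 317 in NC and of 332, 316 and 279 in KD. The highest and the lowest YIPF2 value were both in KD. Its log2 fold change was 0.03 (SE 0.13, 95% confidence interval -0.25 to 0.31, limma adjusted p = 0.997), the narrowest interval of the 6 relatives tested.

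Of the 6 relatives of YIPF5 that were tested, 0 had an adjusted p below 0.05 in limma, and 0 had an unadjusted p below 0.05. Over all 11986 genes tested, 0.159% had an adjusted p below 0.05 (0.0584% higher and 0.1% lower in KD) and 4.61% an unadjusted p below 0.05. The groups did not overlap for 1 of the 6, YIPF1, where 9.79% of all genes tested had groups that did not overlap. The median log2 fold change of the 6 was -0.10, beside 0.0026 over all genes. The intervals of YIPF1, YIPF2, YIPF4 and YIPF6 ended at or below 0.31, while those of YIPF3 and YIF1B, the lowest of the 6 in value, reached 0.90 and 0.82. A sizeable rise of YIPF3 or YIF1B is therefore not excluded. YIPF5 is no yardstick for these intervals, since it was chosen for its rise.

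**Figure D2:**
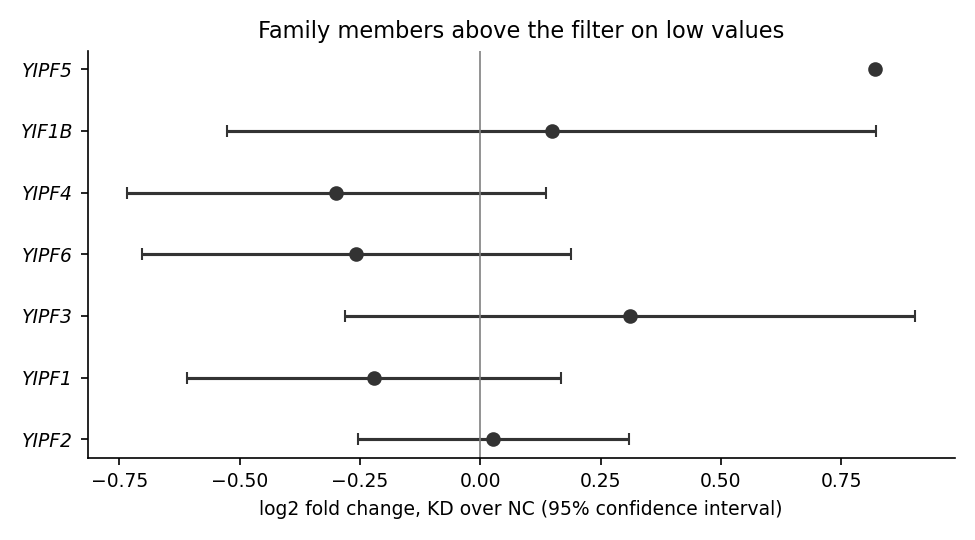
Log2 fold change of KD over NC (x axis) for the 7 family genes above the filter. Points are limma estimates and bars the 95% confidence intervals of the 6 genes not chosen by their values, all of which include 0. YIPF5, chosen for its rise, is a point at 0.82 with no bar.

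Levels of different genes were compared per kb of the longest RefSeq mRNA. In NC embryos YIPF2 had the highest level of the family, 140 ± 6.97 per kb (SD, n = 3), followed by YIPF5 at 86.9 ± 10.8 and YIPF1 at 74.0 ± 5.73. The ranges of these 3 genes over the libraries did not overlap. YIF1B (25.3 ± 3.82) and YIPF3 (22.6 ± 1.97) came next and overlapped each other. YIPF6 stood at 18.5 ± 2.39, and YIPF4 (10.3 ± 2.64) overlapped with YIF1A (7.63 ± 5.86) at the bottom. Among 9762 named genes tested with a RefSeq length, the NC level per kb of YIPF2 was at the 66.9th percentile, that of YIPF5 at the 57.5th and that of YIPF4 at the 18.7th. The order at the top depends on the length used. Per kb of the shortest RefSeq transcript, YIPF5 in NC (243 ± 30.1) lay above YIPF2 (182 ± 9.05) with no overlap.

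In KD embryos YIPF5 and YIPF2 did not differ beyond their spread per kb of the longest mRNA. YIPF5 had 153 ± 11.3 per kb and YIPF2 143 ± 12.6 (SD, n = 3 each), and their ranges overlapped. YIPF1 ranked 3 at 63.3 ± 0.994, and the genes below it followed in the same order as in NC, except that YIPF3 (28.5 ± 5.95) and YIF1B (28.4 ± 6.76), which overlapped in both groups, changed places. The single RefSeq mRNA of YIPF4 has 13813 bases, of which 876 are coding, so its place depends on the length used. Per kb of coding sequence, a length chosen after seeing the data, YIPF4 ranked 3 in both groups, at 162 ± 41.6 in NC and 129 ± 18.7 in KD, and overlapped with YIPF6. On that scale YIPF5 in KD, at 428 ± 31.6, lay above YIPF2, at 305 ± 26.9, with no overlap.

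**Figure D3:**
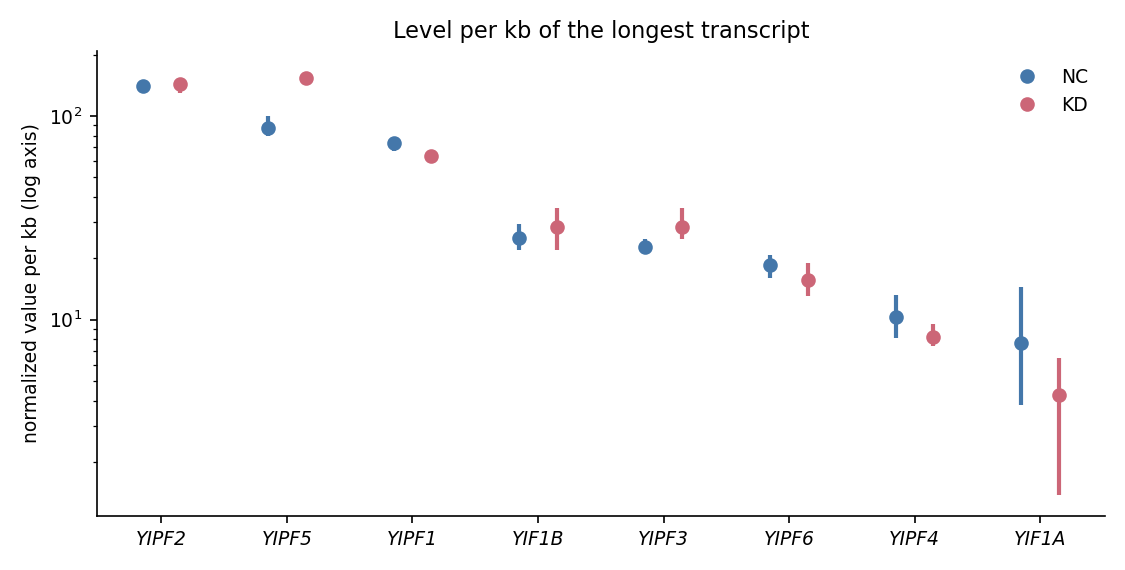
Normalized value per kb of the longest RefSeq mRNA (y axis, log scale) for the 8 family genes, ordered by their NC level. Points are means of NC (blue) and KD (red), and lines run from the lowest to the highest of the 3 libraries. YIPF5 moves from 86.9 to 153 per kb, the level of YIPF2 (140 in NC, 143 in KD).

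The sum of the 8 genes per kb was 385 ± 7.56 in NC and 445 ± 6.58 in KD (SD, n = 3 each). YIPF5 made up 21.1% to 25.2% of this sum in the NC libraries and 31.7% to 37.6% in the KD libraries. The share depends on the length used. Per kb of the shortest RefSeq transcript it was 40.5% of the family by group means in NC and 54.9% in KD. The sum and the share both include YIPF5, which was chosen for its rise, so they are given without a test. Without YIPF5 the sum was 298 ± 3.81 in NC and 291 ± 16.8 in KD, and the groups overlapped (exact two-sided permutation test, p = 0.8, where the smallest p possible is 0.1).

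The named neighbours of YIPF5 on chromosome 2 were also measured. KCTD16, a GABA-B receptor subunit gene from 145704702 to 145992830, had values of 726 to 850 in NC and 756 to 844 in KD (log2 fold change 0.03, SE 0.11). NR3C1, the glucocorticoid receptor gene from 144822937 to 144956451, had 111 to 120 in NC and 94.3 to 113 in KD (log2 fold change -0.17, SE 0.18). Both had overlapping groups and an adjusted p of 0.997 from limma. The other annotated neighbours, LOC110259145 and LOC110259671, were not found by name.

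The genes whose values ran most like those of YIPF5 over the 6 libraries were named by Pearson's r on the log2(value + 1) scale. They were ABAT (r = 0.987), ICK (0.982), FAM3D (0.974), PRPF6 (0.974) and HINT1 (0.972). ABAT encodes GABA transaminase, ICK a kinase of cilia and PRPF6 a splicing factor. In all of them the KD libraries were above the NC libraries. ABAT was at 19.9 to 23.4 in NC and 34.4 to 38.7 in KD, and PRPF6 at 214 to 225 in NC and 268 to 290 in KD. FAM3D and HINT1 had means of 12.6 and 10.9 over the libraries, near the filter. Of 11985 other genes, 27 had an r above 0.95. As YIPF5 differed between the groups, its order over 6 libraries is largely the order of the groups, and r describes these libraries only. Within the family, r with YIPF5 ran from -0.93 (YIPF1) to 0.59 (YIPF3).

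The route on which YIPF5 acts was followed through 106 genes in 6 lists, of which 96 were found and 88 tested. None of the 88 had an adjusted p below 0.05 from limma, beside 0.159% of all genes. With a replicate block, which was not used here, TFG and VAPA did. At an unadjusted p below 0.05, there were 10, 7 higher and 3 lower in KD, beside 2.24% and 2.38% of all genes. Groups did not overlap for 10 that were higher and 5 that were lower, 17.0% of the 88. Over all genes the share was 9.79%, with 4.85% higher and 4.94% lower. Whether the lists differ as sets from other genes was not tested. The lists were drawn up with earlier results of these data known. The shares here and for each list below are therefore not an unbiased comparison with all genes. The median log2 fold change over the 88 was 0.03.

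The COPII coat buds vesicles from the ER towards the Golgi. Of 14 tested genes of the coat and its regulators 0 passed the adjusted p, and the median log2 fold change was 0.04. Groups did not overlap for 3 that were higher and 1 that was lower in KD (28.6% of the list, beside 9.79% of all genes). TFG, which organizes ER exit sites, came nearest. Its values were 744, 465 and 614 in NC and 955, 819 and 1065 in KD, so that the groups did not overlap, with a log2 fold change of 0.66 (SE 0.15, limma adjusted p = 0.165). The adjusted p of TFG was 0.0407 without NC replicate 1 and ran from 0.00828 to 0.844 over all alternatives. PREB, the exchange factor for the GTPase SAR1, had a log2 fold change of 0.25 and SEC24C, a cargo adaptor of the coat, one of -0.13, both with groups that did not overlap and an adjusted p of 0.997.

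The COPI coat returns vesicles to the ER, and ARF GTPases recruit it. The 14 tested genes of the coat, the ARF GTPases and their regulators had log2 fold changes from -0.17 to 0.13 with a median of -0.0039, and the groups overlapped for all 14. Among 17 tested p24 proteins and cargo receptors the median was 0.01. ERGIC1, a cycling protein of the ER-Golgi intermediate compartment, was the only one with groups that did not overlap (5.88% of the list, beside 9.79% of all genes). Its values were 5.85 to 11.5 in NC and 15.8 to 26.3 in KD, near the filter, with a log2 fold change of 1.01 (SE 0.48, limma adjusted p = 0.997).

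Of 26 tested SNAREs, tethers and Golgi matrix genes, which let vesicles find and fuse with the Golgi, 0 passed the adjusted p and the median log2 fold change was -0.02. Groups did not overlap for 4 that were higher and 3 that were lower in KD (26.9% of the list, beside 9.79% of all genes). GORASP1, a Golgi stacking protein, had values of 48.2 to 73.9 in NC and 83.2 to 102 in KD (log2 fold change 0.62, SE 0.23, limma adjusted p = 0.922). The golgin GOLGA5 had 704 to 787 in NC and 597 to 649 in KD (log2 fold change -0.27). The TRAPP tether subunits TRAPPC1 and TRAPPC2 had log2 fold changes of 0.48 and -1.01, the latter at values of 6.56 to 17.6 over all libraries. GOLGA5, TRAPPC1 and TRAPPC2 had an adjusted p of 0.997.

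RAB GTPases are the known partners of Yip1-domain proteins, and the list also holds GDP dissociation inhibitors of RAB GTPases. Of 13 tested, RAB2A, which acts between the ER and the Golgi, was the only one with groups that did not overlap (7.69% of the list, beside 9.79% of all genes). Its values were 845, 745 and 882 in NC and 1019, 1066 and 1124 in KD (log2 fold change 0.38, SE 0.10, limma adjusted p = 0.467). RAB1A, the closest relative of the yeast partner of Yip1, showed a log2 fold change of 0.01 (SE 0.13), and GDI2, the most abundant of the list by value, one of 0.0034 (SE 0.08). RAB1A and GDI2 were named after their values were seen.

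The last list of the route held 4 tested genes. Groups did not overlap for 1 that was higher and 1 that was lower in KD (50% of the list, beside 9.79% of all genes). VAPA, an ER membrane protein that tethers the ER to other organelles, had values of 1368, 1412 and 1581 in NC. In KD the values were 973, 932 and 1138. All KD libraries were below all NC libraries, with a log2 fold change of -0.52 (SE 0.11, limma adjusted p = 0.0798). Its adjusted p was 0.0271 without KD replicate 3 and 0.0428 without the filter, and ran from 0.0142 to 0.782 over all alternatives. VAPB, the paralog of VAPA known to bind YIF1A, had a log2 fold change of -0.24 (SE 0.13, adjusted p = 0.997) and was named after its value was seen. TVP23A, a Golgi protein whose yeast relative binds the Yip1 complex, had values of 32.9 to 48.1 in NC and 61.5 to 77.3 in KD (log2 fold change 0.87, SE 0.26, limma adjusted p = 0.580).

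Genes of the ER stress response were followed because loss of YIPF5 is known for ER stress. Of 20 tested, 0 had an adjusted p and 0 an unadjusted p below 0.05 from limma, and the median log2 fold change was 0.09. The groups did not overlap for 3 (15% of the list, beside 9.79% of all genes), all higher in KD. Of all genes, 4.85% were higher in this way. DNAJC3, a cochaperone of the ER, had 135 to 166 in NC and 172 to 219 in KD (log2 fold change 0.34, SE 0.17), and SEL1L, of the ER-associated degradation complex, 1405 to 1623 in NC and 1631 to 1827 in KD (log2 fold change 0.18, SE 0.10). Both had an adjusted p of 0.997. Other genes of the list were lower in KD, with groups that overlapped. The largest falls were those of HERPUD1 (log2 fold change -1.06, SE 0.55, at low values), DNAJB9 (-0.36, SE 0.21) and DDIT3 (-0.35, SE 0.32). Each had an adjusted p of 0.997 from limma. The major ER chaperone HSPA5 had a log2 fold change of -0.13 (SE 0.12). HERPUD1, DNAJB9, DDIT3 and HSPA5 were named after their values were seen.

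**Figure D4:**
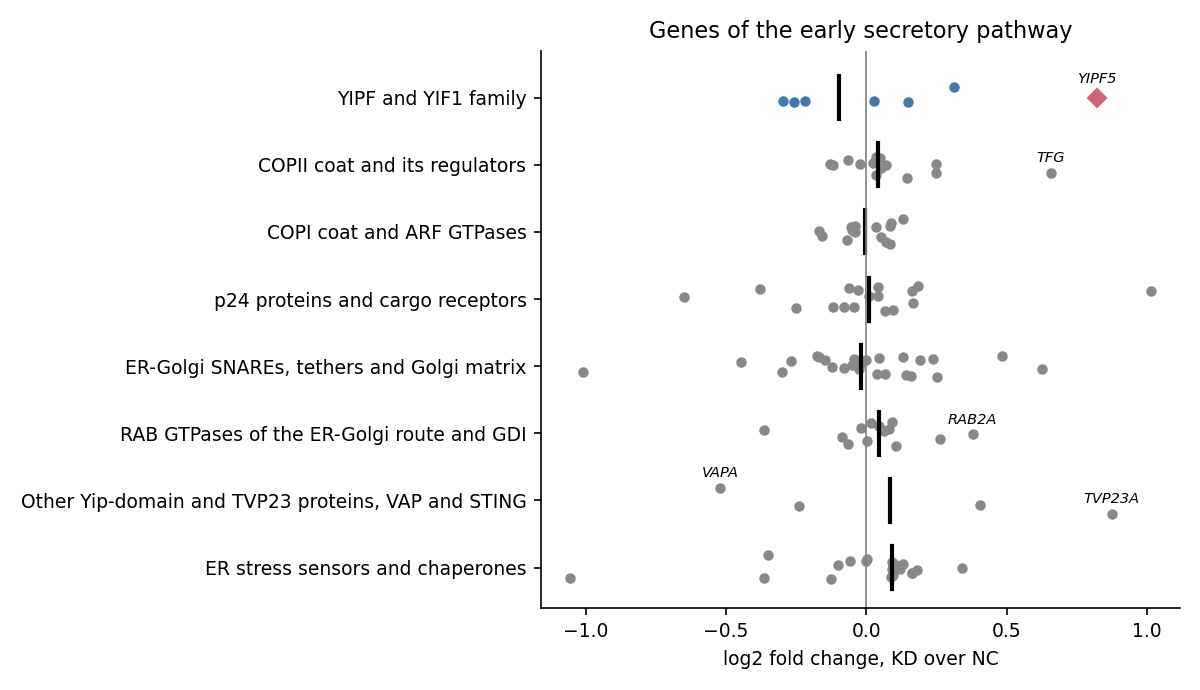
Log2 fold change of KD over NC (x axis) of single genes, by list (rows). Grey points are genes of the pathway lists, blue points the 6 tested relatives of YIPF5, the red diamond is YIPF5 (0.82), and black bars are medians, without YIPF5 in the family row. Medians lie between -0.10 and 0.09 in every row. The labelled TFG (0.66), TVP23A (0.87), RAB2A (0.38) and VAPA (-0.52) lie away from them but are not the most distant points. ERGIC1 (1.01), TRAPPC2 (-1.01) and HERPUD1 (-1.06), all at low values, lie further out without labels.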

How the data were processed

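The authors assigned reads to Sscrofa11.1 transcripts with Salmon 0.14.1, per the labels, and used DESeq2. They deposited 1 table of normalized signal per Ensembl gene, used here for all 6 libraries. Values below 10 gave a spacing of 0.719 to 1.465 per read, which puts the depth at about 7780000 to 15790000 reads. Only 41.6% to 62.7% of these values lay within 2% of the spacing, so whole reads were not recovered, no count test was run, and low genes are imprecise.

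Genes with a mean of at least 10 (11986 of 17678) entered a limma fit (version 3.58.1, R 4.3.3) of log2(value + 1), with a variance trend and Benjamini-Hochberg adjustment over all of them. Fold changes on this scale understate those of low genes. Exact permutation tests used scipy 1.17.1. The study calls the replicates independent. Whether they came from separate oocyte collections is not given in the sources used here, and p-values measure only the spread between these libraries.

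The members and lists were chosen with earlier results of these data known. Named genes are the members, SIN3A, the neighbours of YIPF5, the 5 genes most correlated with it, and, per pathway list, genes called and up to 2 rises and 2 falls with groups that do not overlap. Names missing from the table were looked up in a reference list, which found COPE, GOSR2, TRAPPC10, HSP90B1, DNAJB11 and LHCGR. Alternatives were pseudocounts of 0.1 and 10, no filter, TMM-like rescaling, quantile normalization, no variance trend, a replicate block, other lengths and leaving out each library.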

Additional observations from a re-analysis of the deposited data

How the results depend on the processing

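Of the 6 relatives of YIPF5 tested, 0 had an adjusted p below 0.05 from limma in every alternative run, and 0 had an unadjusted p below 0.05. The log2 fold change of YIPF5 stayed between 0.76 and 0.92 over all alternatives and was 0.79 with a pseudocount of 10. The count of pathway genes past the adjusted p, over the 108 tested in all 7 lists with ER stress, was 0, 1 without the filter (VAPA), 2 with the replicate block, and 0 to 1 when each library was left out. With no variance trend, 0 of all genes passed, against 19, and SIN3A had an adjusted p of 0.423 at a log2 fold change of -3.81. The cause was not tested. With the replicate block, 26 of all genes passed, and the count was 11 to 19 when a library was left out, with 12 without NC replicate 2 or NC replicate 3 and 11 without KD replicate 1 or KD replicate 2.

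The replicate block rests on numbers in the sample titles. Same-numbered libraries had correlations of 0.109, 0.111 and 0.087 after the group means were subtracted, and not all exceed 0.1, so the numbers were not taken as pairs, although each library correlated best with its own number. With the block the pathway genes past the adjusted p were TFG (adjusted p = 0.00828) and VAPA (adjusted p = 0.0142), and the log2 fold change of YIPF5 was 0.82.

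YIPF5 ranked 2 of 8 in NC by level per kb and 1 with the shortest RefSeq transcript, which for YIPF5 has coding bases only. It ranked 1 in KD, 1 to 2 when each KD library was left out, with rank 2 without KD replicate 3. Directions reversed only for YIPF2 (-0.010 without NC replicate 2 and -0.026 without KD replicate 1), YIF1B (-0.019 without KD replicate 1) and KCTD16 (-0.013 without NC replicate 1 and -0.0098 without KD replicate 3). Leaving out each library gave -0.026 to 0.099 for YIPF2, -0.019 to 0.32 for YIF1B and -0.013 to 0.10 for KCTD16. Of 287 comparisons for 23 single genes, 276 kept their direction and side of the threshold. YIF1A was fitted only without the filter, with a standard error of 0.66.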
